A study of Mus musculus with 18 samples.

Results

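The genes described here pack newly copied DNA into chromatin and carry its methylation through cell division. They were taken as the rows of the UMI count table (UMI, unique molecular identifier, a tag that lets each RNA molecule be counted once) whose mouse Ensembl identifiers map to 10 symbols: Chaf1a, Chaf1b, Asf1a, Asf1b, Nasp, Pcna, Dnmt1, Uhrf1, Hells and Lmnb1. All 10 were found, among 50689 rows. The study set 9 scKO libraries, from proliferating satellite cells of genotype Pax7-CreERT2/+;Hoxa10f/f given 4-hydroxytamoxifen (1 µM, 2 days), against 9 control libraries of genotype Hoxa10f/f. Satellite cells are the stem cells of skeletal muscle; these were grown on Matrigel in growth medium from the tibialis anterior of C57BL6 mice, with age not given. Both groups carry 2 floxed Hoxa10 copies, so the floxed allele is shared, while the Pax7-driven, tamoxifen-inducible Cre and the drug (named for scKO alone) differ together with the deletion. Whether the libraries stem from different animals or cultures is not given, so the p-values measure the spread between these samples, which may be technical.

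In S phase the sliding clamp PCNA marks freshly copied DNA, and the chaperone CAF-1, whose subunits are encoded by Chaf1a and Chaf1b, binds it and places new histones H3 and H4 there. ASF1, in the forms Asf1a and Asf1b, hands those histones to CAF-1, and NASP keeps a soluble reserve of them. DNMT1 copies methyl marks onto the new strand, UHRF1 guides it to half-methylated sites, and the remodeller HELLS (also called LSH) opens chromatin for methylation. Lamin B1, the product of Lmnb1, lines the inner face of the nuclear envelope and is known to decline in senescent cells. Most of these genes are transcribed with the G1/S programme that E2F factors drive, whereas Asf1a is known to be less tied to proliferation than Asf1b.

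Libraries over 2000000 counts, scKO 6, 7 and 9 and control 1 and 2, are called deep (5295236 to 5842408 counts in scKO, 4346150 to 5986128 in control), and the others shallow (613915 to 968559 counts in 6 scKO libraries, 420197 to 917166 in 7 control libraries). Levels are in CPM, counts scaled to a common library size by TMM, and levels of deep and shallow libraries were not compared with each other. Hoxa10 averaged 7.85 ± 1.89 CPM in deep scKO and 37.6 ± 1.26 CPM in deep control libraries (SD, n = 3 and 2), and 3.32 ± 0.939 CPM in shallow scKO and 34.2 ± 18.5 CPM in shallow control libraries (SD, n = 6 and 7), with no overlap in either class. The myoblast genes Myod1, Des, Cdh15 and Itga7 had at least 268 counts in every library and Pax7 at least 8, while Msc had at most 2. On the 2nd principal component scKO 1 and control 7, 8 and 9 lay between -31.6 and -21.2, against 11.8 to 23.0 for the remaining shallow libraries. Summed markers of endothelial, leukocyte, fibro-adipogenic, Schwann and tendon cells overlapped between scKO and control in both classes; smooth muscle and pericyte markers did so in shallow libraries but not in deep ones. In bulk RNA, fewer cells in S phase and less RNA per cell cannot be told apart.

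Upstream sequences are shown for Chaf1a and Chaf1b, which encode 2 subunits of one complex, and for Uhrf1, since these were among the members with the largest differences in deep libraries. RefSeq promoters (GRCm38.p6) were found for 9 of the 10 genes. Each line runs 5′ to 3′ on the gene's plus strand and ends just before the RefSeq start, or for Uhrf1 17 bases before it, where a GENCODE exon begins. Capitals mark CCAAT boxes and 7-base forms of the E2F motif on either strand, which are TTCCCGC as well as TTGGCGC along with TTGGCGG.
Chaf1a, chr17:56040236-56040415: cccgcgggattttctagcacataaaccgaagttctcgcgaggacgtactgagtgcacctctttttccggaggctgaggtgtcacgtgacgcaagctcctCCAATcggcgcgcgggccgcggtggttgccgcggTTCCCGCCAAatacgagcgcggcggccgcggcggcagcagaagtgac
Chaf1b, chr16:93883721-93883900: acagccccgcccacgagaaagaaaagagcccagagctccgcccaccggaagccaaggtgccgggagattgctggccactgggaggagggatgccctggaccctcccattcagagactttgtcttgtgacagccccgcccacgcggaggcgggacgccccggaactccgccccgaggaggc
Uhrf1, chr17:56303141-56303320: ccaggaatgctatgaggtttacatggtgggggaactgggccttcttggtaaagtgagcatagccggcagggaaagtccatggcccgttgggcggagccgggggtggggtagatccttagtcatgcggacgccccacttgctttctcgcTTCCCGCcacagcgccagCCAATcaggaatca

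In the Chaf1a line 2 overlapping E2F forms on opposite strands, TTCCCGC and TTGGCGG, make 1 run that starts 47 bases before the start, and Uhrf1 holds TTCCCGC 48 bases before its start. The printed Chaf1b stretch holds no match; its TTCCCGC, on the opposite strand, begins 227 bases upstream, outside the line. Within 250 bases upstream, a 7-base form was present in 4 of the 9 genes with a promoter (Chaf1a, Chaf1b, Hells and Uhrf1), and in 7.44% of 32851 promoters in the table; these forms were chosen after the longer ones had been searched. The 8-base forms TTTCCCGC, TTTGGCGC, TTTCGCGC and TTTGCCGC, on either strand, were present in 3 of the 9 (Dnmt1, Hells and Uhrf1), and in 1.86% of all; TTTCCCGC contains TTCCCGC, and TTTGGCGC contains TTGGCGC. The CCAAT box, on either strand, was present in 7 of the 9 and in 33.8% of all. Dnmt1 and Uhrf1 count as matched if any of their listed starts was.

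In the deep libraries, chromatin assembly genes were lower in scKO almost throughout. Of the 10 members, 9 fell (edgeR adjusted p under 0.05), and Asf1a was the exception with a log2 fold change of -0.20 (SE 0.11, adjusted p by edgeR = 0.226). Over all 13136 genes tested there, 7.03% fell and 7.31% rose. The members' log2 fold changes ran from -1.02 to -0.20 with a median of -0.73, against a median of -0.0017 over all genes, and all 10 were negative, against 50.2% of all genes. Every deep scKO library lay below both deep controls for all 10 members, a pattern that 21% of the genes tested in deep libraries shared.

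**Figure D1:**
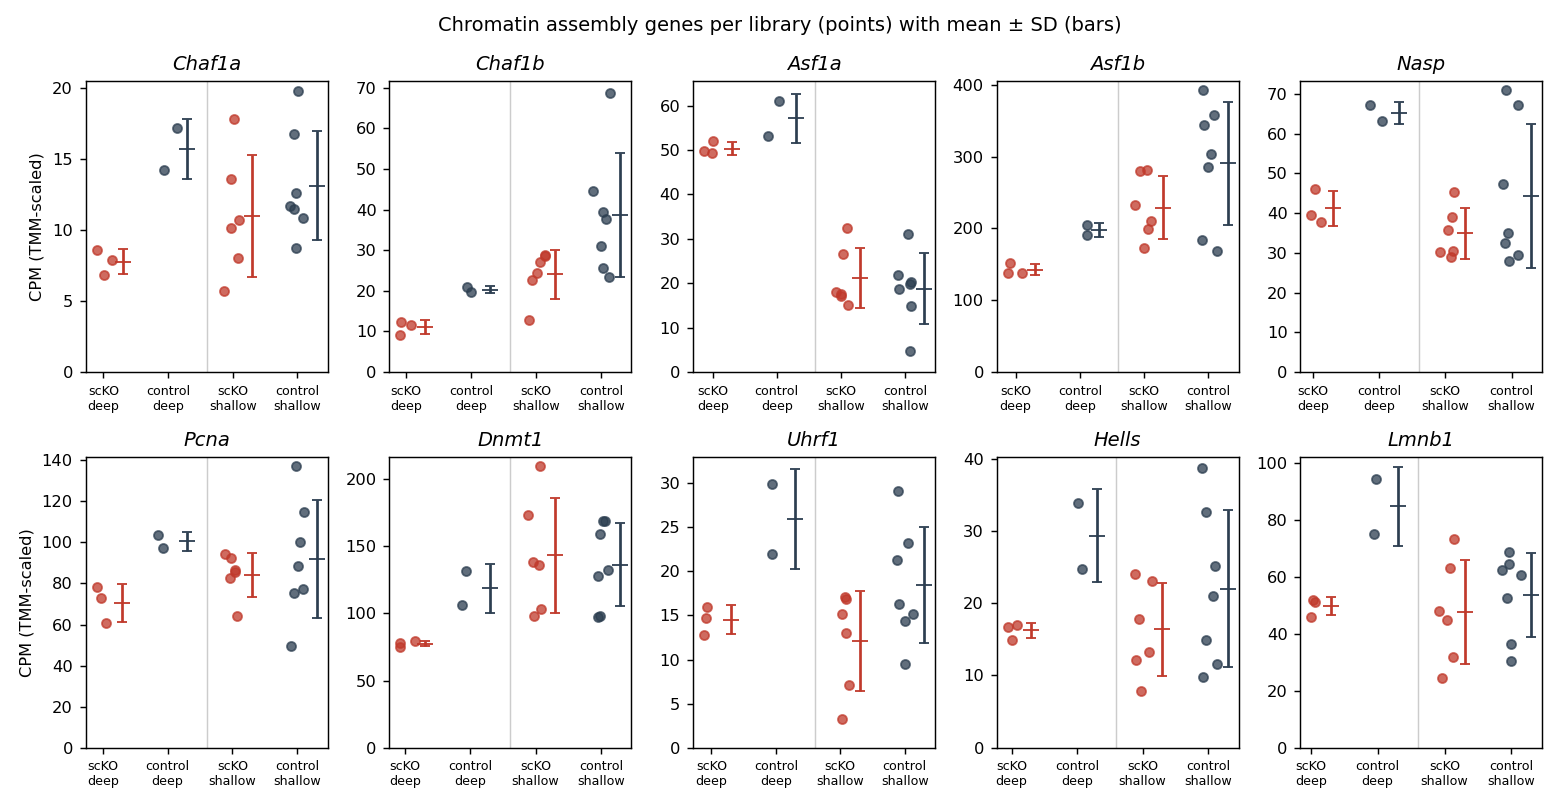
Level of each member in CPM (linear axis from 0) in each library, scKO left of control, in deep libraries (3 and 2) and shallow libraries (6 and 7); points are libraries and bars mean ± SD. In deep libraries all scKO points lie below all control points for each of the 10 genes, and in shallow libraries the groups overlap for each.

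Among the members the CAF-1 genes had the largest deep log2 fold changes. Chaf1a (ENSMUSG00000002835; chromosome 17, 56040439 to 56072289, plus strand, GRCm38), which encodes the large subunit, had 6.81, 7.87 and 8.56 CPM in scKO 6, 7 and 9, against 17.2 and 14.2 CPM in control 1 and 2. The deep groups did not overlap, and the scKO mean was 49.3% of the control mean. Chaf1a fell with a log2 fold change of -1.02 (SE 0.18, adjusted p by edgeR = 0.0029). Its exons share 4648 bases with Ubxn6 on the other strand, and since strand handling is not stated, reads of that overlap cannot be assigned to either gene; Ubxn6 itself had a deep log2 fold change of 0.29 (edgeR adjusted p = 0.174).

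Chaf1b (ENSMUSG00000022945; chromosome 16, 93883901 to 93906115, plus strand), the middle subunit, had 9.09, 12.4 and 11.6 CPM in the 3 deep scKO libraries, against 20.9 and 19.7 CPM in the 2 deep controls. In shallow scKO libraries it ran from 12.8 to 28.8 CPM with a median of 25.7, and in shallow controls from 23.3 to 68.7 CPM with a median of 37.8. All 6 shallow scKO libraries lay below the control median, though the ranges overlapped, and counts there were small (94 in all in scKO, 180 in control). Its log2 fold change was -0.89 (SE 0.17, adjusted p by edgeR = 0.00401) in deep and -0.73 (SE 0.25, adjusted p by edgeR = 0.721) in shallow libraries.

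With both classes in one model and the depth class as a covariate, Chaf1b fell with a log2 fold change of -0.80 (SE 0.18, adjusted p by edgeR = 0.0402). It was the only call among the 9 members that passed the count filter in that model, where 0.352% of 7662 genes fell and 0.326% rose, 0.679% in all. The log2 fold change of Chaf1b stayed between -0.84 and -0.69 when any library was left out, but leaving out any 1 of scKO 3, 5, 6, 7, 8 and 9 or of control 1, 2 and 3 ended the call (edgeR adjusted p = 0.0563 to 0.139). So did a model of the group alone (log2 fold change -0.90, edgeR adjusted p = 0.516) and one with the replicate number as a block (log2 fold change -0.72, edgeR adjusted p = 0.0841). Chaf1a, with 3 to 17 counts in shallow libraries, did not pass that filter; with no filter its log2 fold change was -0.73 (SE 0.21, adjusted p by edgeR = 0.0384) over both classes. Without the filter Chaf1a, Chaf1b, Hells and Uhrf1 fell (0.807% of all genes), and with DESeq2 Chaf1b, Hells, Nasp and Uhrf1 (2.94% of all genes).

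The log2 ratio of Chaf1b to Chaf1a averaged 0.46 ± 0.13 in deep scKO and 0.36 ± 0.13 in deep control libraries (SD, n = 3 and 2), and 1.11 ± 0.52 in shallow scKO and 1.46 ± 0.39 in shallow control libraries (SD, n = 6 and 7). The difference over both classes was -0.23 (exact two-sided permutation within depth classes p = 0.252; Benjamini-Hochberg adjusted over 2 ratios 0.252), and it was 0.10 in deep libraries alone, so a change in the balance of the subunits was not detectable at this depth.

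Of the ASF1 pair, Asf1b fell in deep libraries and Asf1a was not called. Asf1b (ENSMUSG00000005470; chromosome 8, 83955507 to 83970197, plus strand), the form tied to proliferation, had 151.8, 138.1 and 138.2 CPM in the 3 deep scKO libraries, against 204.5 and 190.5 CPM in the 2 deep controls. It fell with a deep log2 fold change of -0.48 (SE 0.09, adjusted p by edgeR = 0.00326). In shallow libraries it ran from 172.5 to 280.7 CPM with a median of 221.2 in scKO, and from 169.1 to 392.3 CPM with a median of 302.9 in control, where all 6 scKO libraries lay below the control median but the groups overlapped. The shallow log2 fold change was -0.36 (SE 0.20, adjusted p by edgeR = 0.822).

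Asf1a (ENSMUSG00000019857; chromosome 10, 53596757 to 53609225, plus strand) had 49.7, 52.0 and 49.3 CPM in the 3 deep scKO libraries, against 53.2 and 61.0 CPM in the 2 deep controls. Shallow libraries held 15.1 to 32.4 CPM (median 17.8) in scKO and 4.66 to 31.2 CPM (median 19.8) in control, with wide overlap. None of the 3 models called it, and over both classes its log2 fold change was -0.01 (SE 0.19, adjusted p by edgeR = 0.996). Asf1a shares 1748 exon bases with Mcm9 on the other strand, so part of its count may belong to that gene, which had 406 counts in all libraries against 2133 for Asf1a.

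The log2 ratio of Asf1b to Asf1a averaged 1.49 ± 0.10 in deep scKO and 1.78 ± 0.21 in deep control libraries, and 3.42 ± 0.19 in shallow scKO and 3.99 ± 0.98 in shallow control libraries (SD; n = 3, 2, 6 and 7). Over both classes the difference was -0.49 (exact two-sided permutation within depth classes p = 0.0823; Benjamini-Hochberg adjusted over 2 ratios 0.165), which did not pass the threshold. It was -0.78 (exact p = 0.00317) without scKO 1 and control 7, 8 and 9, -0.60 (exact p = 0.0146) without control 7, -0.58 (exact p = 0.0338) without control 8 and -0.25 (exact p = 0.127) without control 3, so its size and its call rest on which shallow controls enter.

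**Figure D2:**
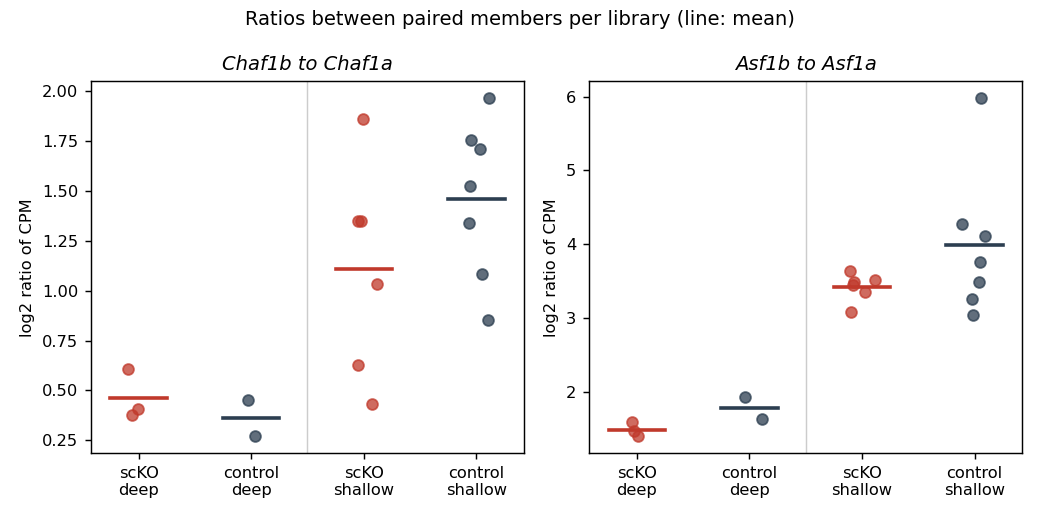
Log2 ratio of CPM between members of a pair in each library (points) with the group mean (line), scKO left of control, for Chaf1b to Chaf1a and Asf1b to Asf1a. The Asf1b to Asf1a mean is lower in scKO in both depth classes (1.49 in scKO against 1.78 in control in deep libraries, and 3.42 in scKO against 3.99 in control in shallow ones), and control 3 lies highest at 5.98.

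Nasp (ENSMUSG00000028693; chromosome 4, 116601052 to 116627941, minus strand), the H3-H4 reserve chaperone, had 37.8, 39.6 and 46.1 CPM in the 3 deep scKO libraries, against 67.1 and 63.1 CPM in the 2 deep controls. It fell there with a log2 fold change of -0.67 (SE 0.11, adjusted p by edgeR = 0.00188). In shallow libraries Nasp had 28.9 to 45.4 CPM (median 33.1) in scKO and 28.0 to 71.0 CPM (median 34.95) in control, where control 3, 4 and 5 lay above every scKO library and the groups overlapped. The shallow log2 fold change was -0.40 (SE 0.24, adjusted p by edgeR = 0.822).

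Pcna (ENSMUSG00000027342; chromosome 2, 132249162 to 132253314, minus strand), the sliding clamp, had 60.5, 78.5 and 72.9 CPM in the 3 deep scKO libraries, against 103.8 and 97.2 CPM in the 2 deep controls, and fell with a log2 fold change of -0.52 (SE 0.11, adjusted p by edgeR = 0.00858). Shallow Pcna levels ran from 64.4 to 94.3 CPM (median 86.1) in scKO and from 49.5 to 137.3 CPM (median 88.6) in control, so the scKO libraries lay within the control range. The count of Pcna is less certain than the others because the processed copy Pcna-ps2 on chromosome 19 took 2285 counts in deep libraries against 3038 for Pcna. Pcna-ps2 had a deep log2 fold change of -0.61 (edgeR adjusted p = 0.00544), and with the counts of both rows summed, a setting added after the data were seen, that of Pcna was -0.56 (edgeR adjusted p = 0.00522).

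The genes that maintain DNA methylation also fell in deep libraries. Dnmt1 (ENSMUSG00000004099; chromosome 9, 20907209 to 20959888, minus strand), the maintenance methyltransferase, had 79.5, 77.9 and 75.2 CPM in the 3 deep scKO libraries, against 105.9 and 131.4 CPM in the 2 deep controls (log2 fold change -0.63, SE 0.10, adjusted p by edgeR = 0.00172). In shallow libraries it had 98.4 to 209.9 CPM (median 137.1) in scKO and 97.1 to 169.0 CPM (median 132.5) in control, and the highest shallow library was scKO 2. The shallow log2 fold change was 0.06 (SE 0.20, adjusted p by edgeR = 0.963).

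Dnmt1 had the largest difference in effect between the depth classes, deep minus shallow -0.67 (SE 0.32), which did not pass the test of that difference (edgeR interaction adjusted p = 0.805). Of the 9 members in the model 0 passed it, as did 0% of the 7662 genes tested. Dnmt1 alone among the members had an unadjusted p under 0.05 (0.046). The lack of shallow calls is therefore not a shown difference between classes.

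Uhrf1 (ENSMUSG00000001228; chromosome 17, 56303321 to 56323486, plus strand), which recruits DNMT1, had 12.8, 14.8 and 16.0 CPM in the 3 deep scKO libraries, against 21.96 and 29.9 CPM in the 2 deep controls. It fell there with a log2 fold change of -0.86 (SE 0.17, adjusted p by edgeR = 0.00464), a call lost without control 2 (log2 fold change -0.60, edgeR adjusted p = 0.0569). Shallow libraries held only 2 to 15 Uhrf1 counts each in scKO and 7 to 18 in control, and the gene did not pass the filter there. Over both classes its log2 fold change was -0.71 (SE 0.20, adjusted p by edgeR = 0.0902).

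Hells (ENSMUSG00000025001; chromosome 19, 38930915 to 38971051, plus strand), the remodeller, had 14.97, 16.98 and 16.7 CPM in the 3 deep scKO libraries, against 24.8 and 33.9 CPM in the 2 deep controls (log2 fold change -0.88, SE 0.16, adjusted p by edgeR = 0.00301). In shallow libraries it had 7.89 to 24.1 CPM (median 15.5) in scKO and 9.84 to 38.7 CPM (median 20.9) in control, with overlap. The fold change over both classes was -0.70 on the log2 scale (SE 0.21, adjusted p by edgeR = 0.131).

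Lmnb1 (ENSMUSG00000024590; chromosome 18, 56707813 to 56753424, plus strand), encoding lamin B1, had 51.8, 51.2 and 46.0 CPM in the 3 deep scKO libraries, against 75.0 and 94.5 CPM in the 2 deep controls. By p it ranked highest among the members there, 144th of 13136 genes (log2 fold change -0.79, SE 0.12, adjusted p by edgeR = 0.000884). In shallow libraries it had 24.6 to 73.3 CPM (median 46.5) in scKO and 30.6 to 68.7 CPM (median 60.6) in control, and scKO 3 was the highest shallow library. The shallow log2 fold change was -0.17 (SE 0.25, adjusted p by edgeR = 0.91).

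**Figure D3:**
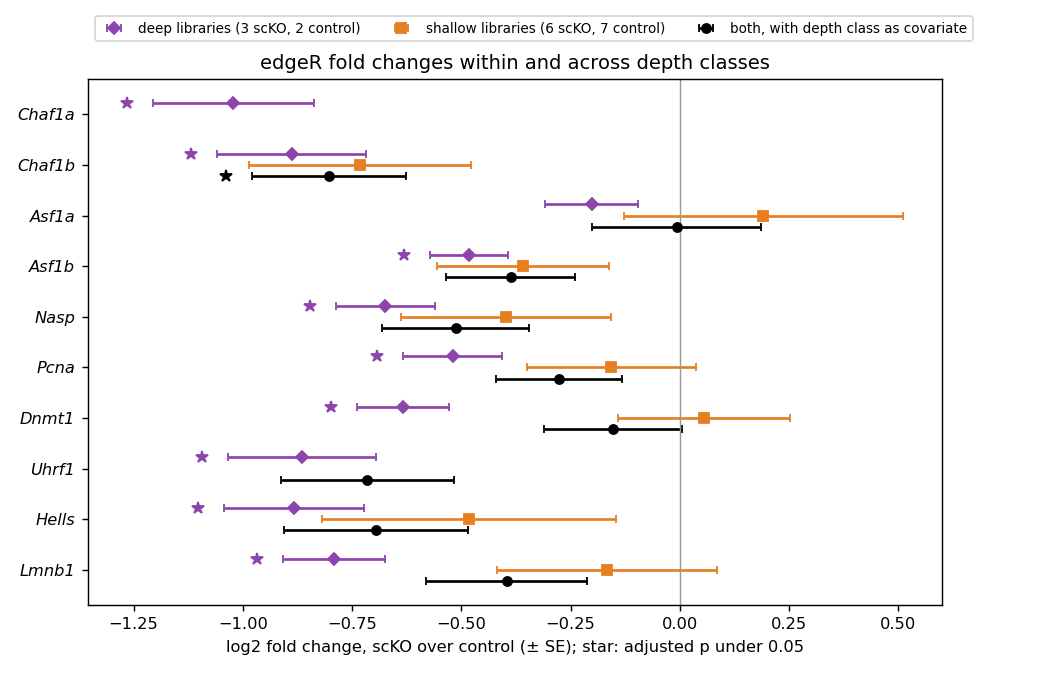
Log2 fold change of scKO over control (± SE) for each member in deep libraries, in shallow libraries and over both with the depth class as a covariate; stars mark edgeR adjusted p under 0.05, and a missing point is a gene that did not pass the count filter. Deep values run from -1.02 to -0.20 with 9 stars, shallow values from -0.73 to 0.19 with none.

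In the 13 shallow libraries none of the 8 members that passed the filter was called, where 0.0145% of 6906 genes fell, and 0.101% had every scKO library below every control. Of these 8, 6 had negative log2 fold changes (54.2% of all genes tested) and 1, Chaf1b, was lower with an unadjusted p under 0.05 (3.13% of all genes tested). DESeq2 and limma-voom called 0 as well. The median was -0.26, against -0.02 over all genes. Over both classes all 9 tested members were negative (51.6% of all genes), with a median of -0.40 against -0.01 over all genes, and 6 had an unadjusted p under 0.05 and a lower level in scKO (5.99% of all genes).

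The 4 shallow libraries set apart on the 2nd principal component moved the count of calls. The 10 members took 0.0427% to 0.0526% of all counts in scKO 1 and control 7, 8 and 9, against 0.0424% to 0.0696% in the other shallow scKO libraries and 0.0644% to 0.0886% in the other shallow controls. In deep libraries they took 0.064% to 0.0681% in scKO and 0.091% to 0.105% in control. The 4 libraries were identified from these same data. Control 7, 8 and 9 had the lowest shares among the shallow controls, so leaving them out raises the mean control share. Without those 4 libraries all 10 members passed the filter over both classes and 7 fell (Chaf1a, Chaf1b, Asf1b, Nasp, Pcna, Uhrf1 and Hells), against 4.09% of 8464 genes; Asf1a, Dnmt1 and Lmnb1 were not called. Within shallow libraries alone their removal gave 0 called members of 9 tested, 8 of them negative.

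**Figure D4:**
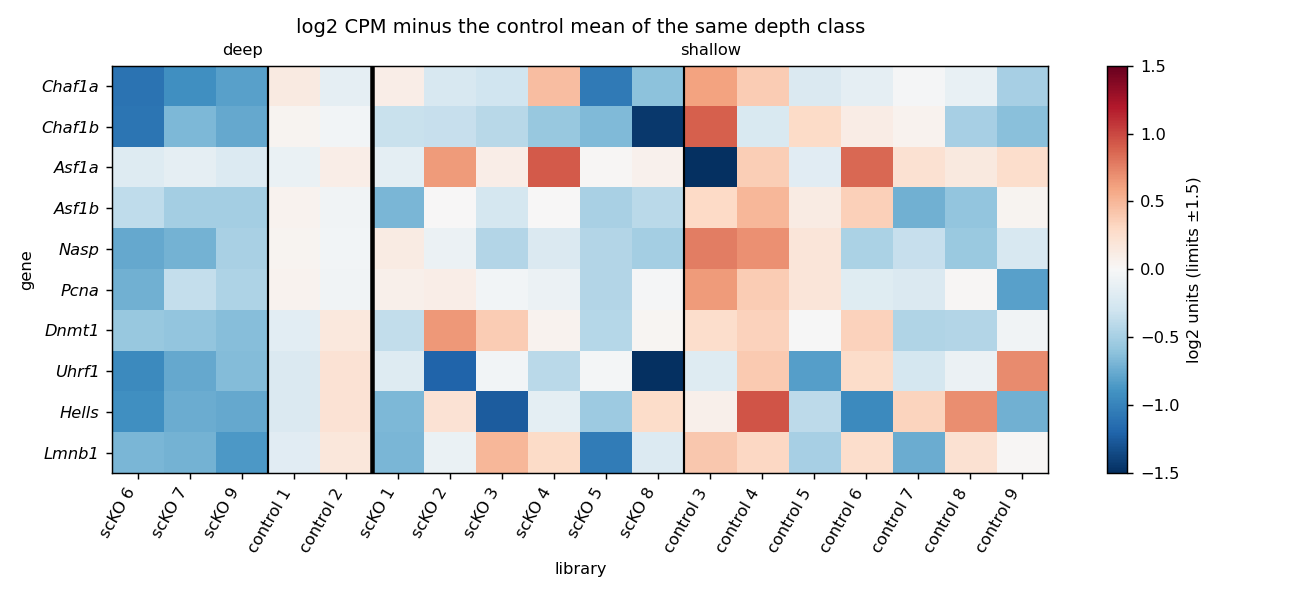
Log2 CPM of each member (rows) in each library (columns) minus the mean of the controls of the same depth class, scKO left of control within each class; colours end at ±1.5 log2 units. All 10 members lie below 0 in scKO 6, 7 and 9, while in shallow scKO libraries 5 to 9 of the 10 do. In shallow controls 1 (control 4) to 7 (control 7) of the 10 do, so the shallow groups overlap.

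Among libraries of the same group and depth class, members varied together only in part. After centring within group and depth class, Pearson's r over 18 libraries ran from -0.52 to 0.82 across the 36 pairs of the 9 members tested over both classes, with a median of 0.12. The highest values joined Asf1b and Dnmt1 (0.82), Nasp and Pcna (0.70) and Dnmt1 and Lmnb1 (0.69), and the lowest joined Asf1a and Nasp. The points share libraries, scaling and low shallow counts, so these values are a description. The 5 tested genes outside the list most like the members' mean were Phc2 (r = 0.87), Serpinh1, Racgap1, Jpt2 and Ssrp1 (r = 0.85 each); of these, Ssrp1 had a log2 fold change of -0.37 and Phc2 0.04 over both classes, neither an edgeR call.

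Related genes, from lists chosen with earlier results of these data known, were tested in the same fits. Of all genes tested, 7.03% fell in deep libraries and 0.352% fell over both classes. Other S phase genes were lower as well: in deep libraries all 38 were negative and 29 fell (median -0.61), and over both classes 24 of 24 tested were negative (median -0.43) and 3 fell. Among them were Mcm5, a subunit of the replicative helicase (-0.63, edgeR adjusted p = 0.0434), and Tyms, which makes thymidylate (-0.89, edgeR adjusted p = 0.0402). Prim1, a primase subunit, had -0.77 (edgeR adjusted p = 0.0649).

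PCNA loaders and binding partners had 15 of 24 genes fall and 1 rise (Pold4, a polymerase delta subunit, 0.48, chosen after its value was seen) in deep libraries (median -0.54), with no call over both classes. Among all genes tested in deep libraries 7.03% fell and 7.31% rose. Lig1, which joins Okazaki fragments, had deep and both-class log2 fold changes of -0.77 and -0.41, and Pclaf, a PCNA-bound factor, -0.88 and -0.56; both fell in deep libraries (edgeR adjusted p = 0.000477 and 0.000217). Rfc5, of the clamp loader, and Rad18, which ubiquitinates PCNA, had both-class values of -0.60 and -0.52 (edgeR adjusted p = 0.107 and 0.095).

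The other H3-H4 chaperones and their partners were mixed, with a deep median of -0.09. In deep libraries 6 of 17 fell and 1 rose, where 7.03% of all genes fell and 7.31% rose. Mms22l, which works with Tonsl on new histones at stalled forks, fell over both classes (log2 fold change -0.68, edgeR adjusted p = 0.0483). Ssrp1, of the FACT complex, and Nap1l1, an H2A-H2B chaperone, fell in deep libraries with -0.56 and -0.40 (edgeR adjusted p = 0.00139 and 0.017), and Spty2d1, an H3-H4 chaperone, rose with 0.50 (edgeR adjusted p = 0.0191). Their both-class values were -0.37, -0.39 and 0.38, none an edgeR call.

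In deep libraries, where 7.03% of all genes fell, replication-independent deposition had 3 of 15 genes fall (list median -0.17). Among them were Hjurp, the chaperone of the centromeric histone CENP-A (-0.51, edgeR adjusted p = 0.00354), and Mis18a, a factor of CENP-A loading (-0.65, edgeR adjusted p = 0.012, outside the naming rule and chosen after its value was seen). Over both classes 11 of 12 tested were negative and none was called; Cabin1, of the HIRA complex, had -0.37 and Anp32e, an H2A.Z chaperone, -0.26.

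DNA methylation writers, readers and erasers outside the members had a deep median of -0.19, with 2 of 18 tested genes lower, where 7.03% of all genes fell. These 2 were Cdca7, the partner that activates HELLS (-1.19, edgeR adjusted p = 0.00244), and Mbd4, a glycosylase (-0.89, edgeR adjusted p = 0.00609), both chosen after their values were seen. Over both classes 11 of 13 tested were negative with no call; Usp7, which binds DNMT1 and UHRF1, had -0.42, Tet3, a methylcytosine dioxygenase, -0.37, Cdca7l -0.30 and Mbd2, a methyl-DNA reader, -0.25.

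Heterochromatin and chromatin maturation genes had a deep median of -0.21, with 2 of 21 lower, a share near the 7.03% of all genes. These 2 were Lrwd1, an origin-associated protein (-0.63, edgeR adjusted p = 0.0138), and the methyltransferase Suv39h2 (-0.80, edgeR adjusted p = 0.00523, chosen after its value was seen). Of 18 tested over both classes 15 were negative with no call; the deacetylase Hdac3 had -0.50, the methyltransferase Ehmt1 -0.40 and Atf7ip, a SETDB1 partner, 0.28.

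Lamina genes other than Lmnb1 had a deep median of -0.10, with 2 of 18 lower, where 7.03% of all genes fell: Lbr, the lamin B receptor (-0.60, edgeR adjusted p = 0.01), and the protease Rce1 (-0.55, edgeR adjusted p = 0.0487, chosen after its value was seen). Lmna, Tmpo and Sun2 were not called in any fit (both-class log2 fold changes -0.44, -0.27 and -0.20). E2F, DREAM and G1/S regulators had 6 of 19 lower and 1 higher in deep libraries, where 7.03% of all genes fell and 7.31% rose. The list median was -0.28, and the gene that rose was Rb1, the retinoblastoma gene (0.67, chosen after its value was seen). Among those that fell were Foxm1 (-0.65, edgeR adjusted p = 0.00425), E2f1 (-0.39, edgeR adjusted p = 0.043) and Rbl1 (-0.38, edgeR adjusted p = 0.0309), while E2f8 was not called (-0.28). Over both classes 7 of 12 were positive, the median was 0.01 and none was called. Only these 12 of the 19 passed the count filter there, so the deep and both-class medians do not cover the same genes.

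**Figure D5:**
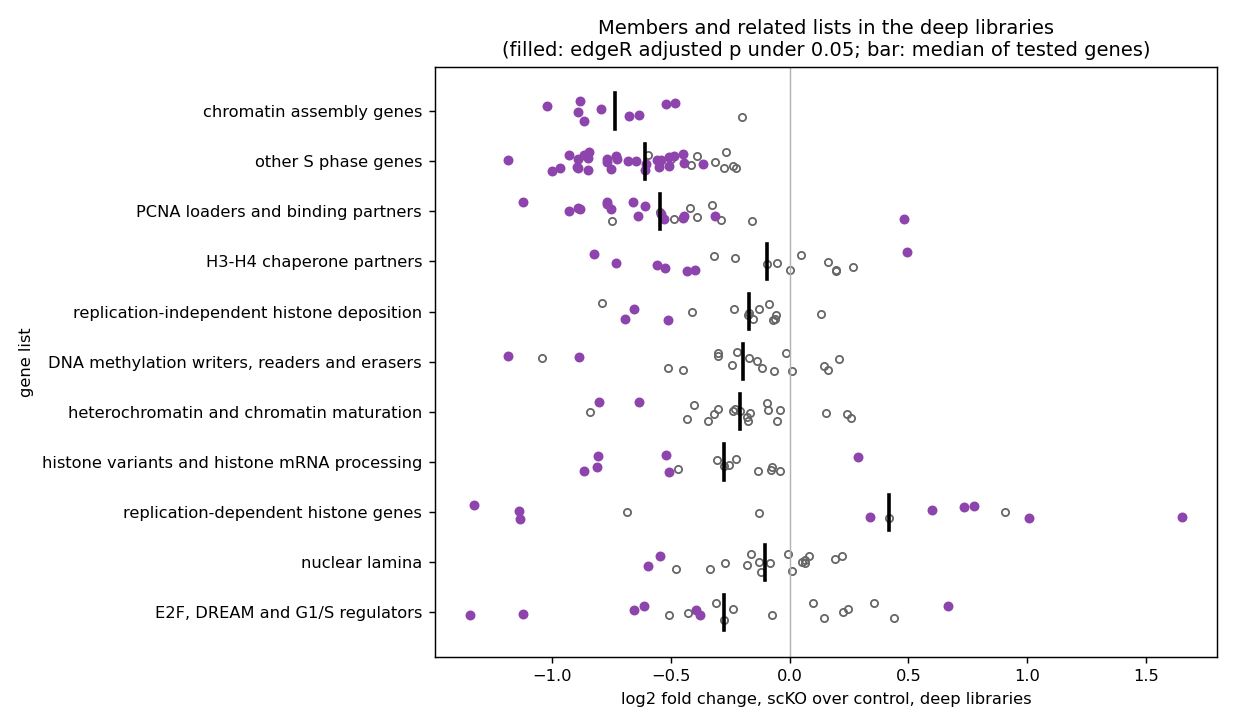
Log2 fold change of scKO over control in deep libraries for each tested gene of the members (top row) and of related lists; filled points have edgeR adjusted p under 0.05, and bars are list medians. The members have the lowest median (-0.73), followed by other S phase genes (-0.61) and PCNA partners (-0.54), some genes standing in more than 1 list; the replication-dependent histone genes lie on both sides of 0.

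Histone variants and histone mRNA factors had a deep median of -0.27. In deep libraries 5 of 15 genes fell and 1 rose, where 7.03% of all genes fell and 7.31% rose. H2afz and H2afx, which encode H2A.Z and H2A.X, fell with -0.87 and -0.81 (edgeR adjusted p = 0.00127 and 0.000783), and Slbp, which binds the stem-loop of histone mRNA, with -0.51 (edgeR adjusted p = 0.0336). The others that fell, named after their values were seen, were Cenpa and H2afy2, with -0.52 and -0.80 (edgeR adjusted p = 0.00543 and 0.0105). H1f0, a linker histone of resting and differentiated cells, rose with 0.29 (edgeR adjusted p = 0.0481). Over both classes H2afz, H2afx, Slbp and H1f0 had log2 fold changes of -0.74, -0.50, -0.43 and 0.23, with no call.

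Summed levels of smooth muscle and pericyte markers in deep libraries were 296.4 to 311.6 CPM in scKO and 258.5 to 294.9 CPM in control, and their part in the deep differences was not tested. Of these 8 markers 6 were tested there, 3 were positive and 3 negative, and 2 rose (Abcc9 and Myh11), where 7.31% of all genes rose. Of 7 Schwann markers tested in deep libraries 4 were positive and 3 negative, and 2 rose, Sox10 and Cdh19 (edgeR adjusted p = 0.00389 and 0.00454). The log2 fold change of Sox10 was 1.96 in deep libraries, -1.35 in shallow libraries and -0.30 over both classes. Of 7 myoblast markers tested in deep libraries 3 were positive and 4 negative. Among them 1 fell, Myf5 (edgeR adjusted p = 0.035), where 7.03% of all genes fell. The part of these lists in the result was not tested either. Muscle differentiation markers summed to 2772 to 2999 CPM in deep scKO and 2310 to 3014 CPM in deep control libraries. Their sums were 10580 to 14910 CPM in shallow scKO and 9674 to 16830 CPM in shallow control libraries, so the groups overlapped. The largest contributors were Tnnt3, Myh3, Mymk and Myog, with 26784 to 57268 counts each over all libraries. UMI collisions lower large counts, so overlap of the deep sums cannot decide whether these markers differed there. Of the 8 markers, Ckm, Mymx and Actn2 (4718 to 8126 counts each over all libraries) rose in deep libraries and 0 fell. Among all genes 7.31% rose there and 7.03% fell. In shallow libraries Ckm, Mymx and Actn2 had log2 fold changes of 0.29, -0.26 and -0.36. Over both classes they had 0.45, 0.08 and -0.07, and none was called in either fit. Endothelial markers summed to at most 60.7 CPM and leukocyte markers to at most 55.1 CPM in any library. Fibro-adipogenic markers reached 135.5 CPM and Schwann markers 183.5 CPM, both in shallow control libraries. Tendon markers summed to 133 to 520.8 CPM in shallow libraries. Scx had 13318 counts over all libraries, while 7 of the 8 tendon markers had a median under 1 CPM, and Kera and Chad were at 0 throughout.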

How the data were processed

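The authors deposited 1 table of raw UMI counts, as its name says, with mouse Ensembl identifiers in rows and libraries in columns. HISAT2 and HTSeq, without versions, and the rat build Rnor_6.0 are named in the submitters' processing notes; library kit, annotation, strand use and UMI length are not given in the sources used here. The highest count in the table was 4096, the number of UMIs of 6 bases, and the highest member count 1623. Collisions lower large counts, most strongly those near 4096, such as Myod1 with up to 4027 and Des with up to 3596 in a library. With counts corrected for collisions the deep log2 fold change of Asf1b was -0.57, against -0.48 uncorrected, and 9 members were called in deep libraries either way. Of 50689 identifiers 50376 had a symbol; positions came from GENCODE M21 (GRCm38).

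Counts were filtered with filterByExpr, scaled by TMM and tested with edgeR 4.0.16 by quasi-likelihood with robust dispersions (R 4.3.3), with Benjamini-Hochberg adjustment over all genes tested and a threshold of 0.05. The models were deep libraries alone, shallow libraries alone, both classes with depth as a covariate, and the interaction of group and class. Ratios used log2 CPM with a prior count of 2. Correlations were computed on log2 CPM centred within group and depth class. DESeq2 1.42.0 and limma 3.58.1 (voom) were alternatives. The methods were tested on simulated data.

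The members and lists were chosen with earlier results of these data known. Genes named were all members, Hoxa10, and per related list those called over both classes and up to 4 with the smallest p; others are marked as chosen after their values were seen. Some genes that this rule selects are left out. The replication-dependent histone genes were added after the data were seen. No 2 libraries were identical; the smallest chi-square per degree of freedom between libraries of one group and class was 1.78.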

Additional observations from a re-analysis of the deposited data

Results flagged for a closer look

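The log2 ratio of Asf1b to Asf1a in control 3 was 5.98, farther from the other 6 shallow controls than their spread allows; it rests on 4 Asf1a counts in that library. Of 24 sets of shallow libraries examined (10 members and 2 ratios in each group) 1 stood out in this way, and chance flags about 1 in 20.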

How the results depend on the processing

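Over both classes the number of members called was 1, but 4 with no count filter (Chaf1a, Chaf1b, Hells and Uhrf1; 0.807% of all genes fell), 4 with DESeq2 (Chaf1b, Hells, Nasp and Uhrf1; 2.94%), 7 without control 7, 8 and 9 and scKO 1, 0 with the group alone and 0 with the replicate block, and 0 to 2 when single libraries were left out. The number of genes called, 52, was 33 with library totals only, 359 with no filter, 22 with the stricter filter, 390 with DESeq2, 100 with limma-voom, 617 without those 4 libraries, 1 with the group alone, 14 with the replicate block and 11 to 216 without single libraries. The labels do not say whether replicate numbers pair the libraries, and the correlations do not settle it. Those of same-numbered libraries ran from -0.07 to 0.25, 5 of 9 were over 0.1, and 3 of 9 scKO libraries correlated best with the control of their own number.

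In deep libraries 9 members were called under all 8 alternatives that keep the 5 libraries, and 8 or 9 when a library was left out. Asf1a over both classes was 0.15 with the group alone, 0.0724 with the replicate block and -0.109 to 0.0889 without single libraries. In shallow libraries Dnmt1 was -0.0594 without the 4 libraries and -0.076 to 0.15 without single ones, and Asf1a -0.0133 to 0.38. The Chaf1b to Chaf1a difference was 0.10 in deep libraries alone, where 5 libraries allow no exact p under 0.1; the Asf1b to Asf1a difference was -0.78 without the 4 libraries and -0.602 to -0.252 without single ones. The cause was not tested. Shallow counts limit Chaf1a and Uhrf1 most, and the deep calls rest on 3 scKO and 2 control libraries.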

Other observations

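Genes listed as replication-dependent histone genes, added after the data were seen, went both ways in deep libraries. Of 68 listed, 13 were tested, 3 fell and 6 rose, where 7.03% of all genes fell and 7.31% rose. The list was taken by symbol (Hist1 to Hist4), and whether each gene depends on replication was not tested. Those that fell were the H2A genes Hist1h2ao, Hist1h2ap and Hist2h2ac (log2 fold changes -1.33, -1.13 and -1.14). Those that rose included Hist1h1c, which encodes a linker histone (0.77; edgeR adjusted p = 0.000407), and Hist1h2bc (0.60; edgeR adjusted p = 0.00196). Hist1h1c also rose over both classes (0.63, SE 0.15; edgeR adjusted p = 0.0495), while the members fell or were not called. Histone genes resemble each other closely, so their counts are uncertain, and the labels do not say whether RNA without a poly(A) tail was captured.

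Counts of the processed copy Pcna-ps2 were 75.2% of those of Pcna in deep libraries (2285 against 3038) and 16% in shallow libraries (121 against 754).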
